A study of Mus musculus with 8 samples.

Results

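The genes described here encode the MHC class II molecules of the mouse, the proteins that load them with peptide, and their transactivator *Ciita*. There were 10 of them among the 23284 symbols of the RNA-seq tables, chosen by symbol: the chains *H2-Aa*, *H2-Ab1* and *H2-Eb1*, the invariant chain *Cd74*, *Ciita*, the peptide editors *H2-DMa*, *H2-DMb1* and *H2-DMb2*, and the DM modulators *H2-Oa* and *H2-Ob*. RNA-seq covered 8 libraries of bone marrow progenitors, 2 labelled Pcgf1 fl/fl (control) and 2 labelled Pcgf1 -/- (Pcgf1-KO) for each of 2 cell types. PCGF1 is a subunit of a variant Polycomb repressive complex, and the study asked which genes it holds down in progenitors. IdHPCs are Lin- Sca-1+ c-kit+ cells transduced with human Id3, which blocks their differentiation, and they were grown on TSt-4 stromal cells with IL-7, SCF and Flt3L. Pcgf1-KO IdHPCs carried ERT2-Cre and Pcgf1 fl/fl and were given 4-OHT. For another experiment the study gives ethanol as the control treatment of such cells, while the treatment of the control IdHPCs sequenced here is not given in the sources used here. LMPPs, lymphoid-primed multipotent progenitors, came from Pcgf1 fl/fl mice without Cre (control) and ERT2-Cre:Pcgf1 fl/fl mice (Pcgf1-KO), and both were cultured with 4-OHT. In another experiment the study grew such LMPPs on TSt-4 stromal cells with SCF, IL-7 and Flt3L. Whether this held for the LMPPs sequenced here is not given in the sources used here. The labels give strain B6CBAF1/J for all 8 libraries. The parent strains B6 and CBA carry different *H2* haplotypes, and the deposited values do not separate their alleles. The labels do not say whether replicates came from separate cultures or animals, and the study describes its data from both cell types as biologically independent experiments. The p-values measure the spread between these libraries.

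Values are in CPM, the reads of a gene scaled by the authors to the total over all listed exons of the library. The floxed part of *Pcgf1*, exons 2 to 7, checked the labels. These rows held 193 and 173 reads in control IdHPCs and 15 in each Pcgf1-KO IdHPC library. Among LMPP libraries, those labelled control 1 and Pcgf1-KO 1 had 84 and 76 such reads, and those labelled control 2 and Pcgf1-KO 2 had 0. The LMPP labels and the *Pcgf1* reads therefore do not match. The study itself reports reduced *Pcgf1* in its Pcgf1-KO LMPPs, in RNA-seq tracks and by RT-qPCR. Whether titles of libraries were exchanged is not given in the sources used here. With edgeR's exactTest, the test the study names, 0 genes were called by label and 2586 by *Pcgf1* reads. LMPPs were compared by label, and also as 2 libraries without reads on *Pcgf1* exons 2 to 7 (replicates numbered 2) against 2 with such reads (replicates numbered 1). That split coincides with the replicate number, so the deletion and anything else tied to that number cannot be told apart. Distinct exon rows held between 15722759 and 25302206 reads per IdHPC library and between 9618849 and 12578784 per LMPP library. Of the 6 progenitor markers, *Kit*, *Flt3*, *Cd34* and *Ptprc* had at least 29.6 CPM in all 8 libraries, while *Il7r* and *Ly6a* were lower in LMPPs, down to 0.681 and 2.801 CPM in the library labelled Pcgf1-KO 2.

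MHC class II molecules pair an alpha with a beta chain and present peptides from endosomes to CD4 T cells. *H2-Aa* and *H2-Ab1* encode the alpha and beta chains of I-A, and *H2-Eb1* encodes the beta chain of I-E. The invariant chain CD74 fills the groove until it is cut down to a short peptide, which H2-DM removes, while H2-O restrains H2-DM. CIITA does not bind DNA itself. It joins RFX, CREB and NF-Y on the X and Y boxes of class II promoters, and its own transcription is best known from B cells, dendritic cells, and cells exposed to interferon gamma.

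Promoter sequences show the elements through which the members are thought to be read together. RefSeq promoters (GRCm38.p6, 250 bases before to 50 bases after the start) were at hand for 7 of the 10 members. *H2-Ab1*, *Cd74* and *Ciita* had none in that table. These 7 genes have 8 promoters, since *H2-DMa* has 2. A Y box (GATTGG, searched on both strands) was found in 7 of the 8 and in 16.1% of all 32851 promoters. The promoter without one is the first of *H2-DMa*, and its second holds a Y box 199 bases before the start and is not shown. A piece of the X box (NACNGATG, both strands) was found in 5 of the 8 and in 9.83% of all promoters. The X box piece stood at most 40 bases before a Y box on the coding strand in 3 members, *H2-Eb1*, *H2-DMb1* and *H2-DMb2*, with starts 29, 30 and 30 bases apart, and in 0.0426% of all promoters. The 66 bases around the Y box are given 5′ to 3′ on the coding strand, with Y boxes and X box pieces in capitals, first for these 3 genes and then for *H2-Aa*, *H2-Oa* and *H2-Ob*, where no X box piece stands within 40 bases before the Y box (in *H2-Oa* one starts 94 bases before it, outside the stretch shown).
H2-Eb1, chr17:34305757-34305822, plus strand: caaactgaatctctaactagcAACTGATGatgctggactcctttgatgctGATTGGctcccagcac
H2-DMb1, chr17:34153079-34153144, plus strand: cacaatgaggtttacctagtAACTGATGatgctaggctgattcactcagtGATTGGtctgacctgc
H2-DMb2, chr17:34145108-34145173, plus strand: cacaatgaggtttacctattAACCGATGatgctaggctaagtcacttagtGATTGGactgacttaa
H2-Aa, chr17:34287857-34287922, minus strand: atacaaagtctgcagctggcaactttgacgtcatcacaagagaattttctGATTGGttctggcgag
H2-Oa, chr17:34092285-34092350, plus strand: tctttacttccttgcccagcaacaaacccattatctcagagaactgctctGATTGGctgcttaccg
H2-Ob, chr17:34238797-34238862, plus strand: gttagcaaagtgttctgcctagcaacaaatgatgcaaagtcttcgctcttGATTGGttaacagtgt
The Y boxes began 60, 62, 91, 49, 44 and 58 bases before the annotated start, in this order. A match is a description of letters only, and no binding was measured. The X box piece is a short fixed string, so a stretch without a match may still hold an X box of other letters.

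By the NCBIM37 (mm9) annotation, the build of the deposited data, 8 members lie on chromosome 17 between 34229285 (*H2-Oa*) and 34453144 (*H2-Eb1*). *Ciita* lies on chromosome 16 from 10480237 to 10527657, and *Cd74* lies on chromosome 18. *H2-Aa* is on the minus strand and the other members are on the plus strand. Exons of *H2-Aa* and *H2-Ab1* share 17 bases on opposite strands in 1 annotated transcript model, 0.856% of the exon bases of *H2-Aa*, where reads of the genes cannot be told apart without strand. Transcripts of *H2-DMb1* and *H2-DMb2* were 87.7% identical over 1144 aligned positions, with an identical run of 221 bases, so reads may have been split between these paralogs and their separate values are uncertain.

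All 10 members had reads in all 8 libraries, the fewest being 2 reads of *Ciita* in Pcgf1-KO IdHPC 2, under the floor of 3 reads. The sum over the members was 582, 558, 365 and 388 CPM in the LMPP libraries labelled control 1, Pcgf1-KO 1, control 2 and Pcgf1-KO 2. In IdHPCs it was 178 and 244 CPM in control IdHPCs against 86.8 and 123 CPM in Pcgf1-KO IdHPCs. *H2-Ob* alone made 108 and 173 CPM of the control IdHPC sums. IdHPCs and LMPPs come from 2 tables that were normalized separately, so their levels are set side by side and were not tested. Per kb of exon, in LMPPs with *Pcgf1* reads, the order ran from *Cd74* (110 ± 8.11 CPM per kb, mean ± SD, n = 2) over *H2-DMa* (70.5 ± 1.73) and *H2-Ab1* (50.8 ± 1.59) down to *Ciita* (1.71 ± 0.537), and no neighbours in it overlapped. Without *Pcgf1* reads, *H2-Ab1* led at 62.0 ± 0.137 CPM per kb (n = 2), before *H2-DMa* (51.7 ± 2.21) and *Cd74* (35.8 ± 1.82), and in that order only *H2-Eb1* and *H2-DMb1* overlapped. In control IdHPCs *H2-Ob* led at 43.6 ± 14.3 CPM per kb (n = 2), and *H2-DMa*, *H2-Oa* and *Cd74* followed with overlapping values between 8.84 and 17.7 CPM per kb. In Pcgf1-KO IdHPCs *Cd74*, *H2-Oa*, *H2-Ob* and *H2-DMa* overlapped pairwise down the order, between 7.06 and 20.3 CPM per kb.

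**Figure D1:**
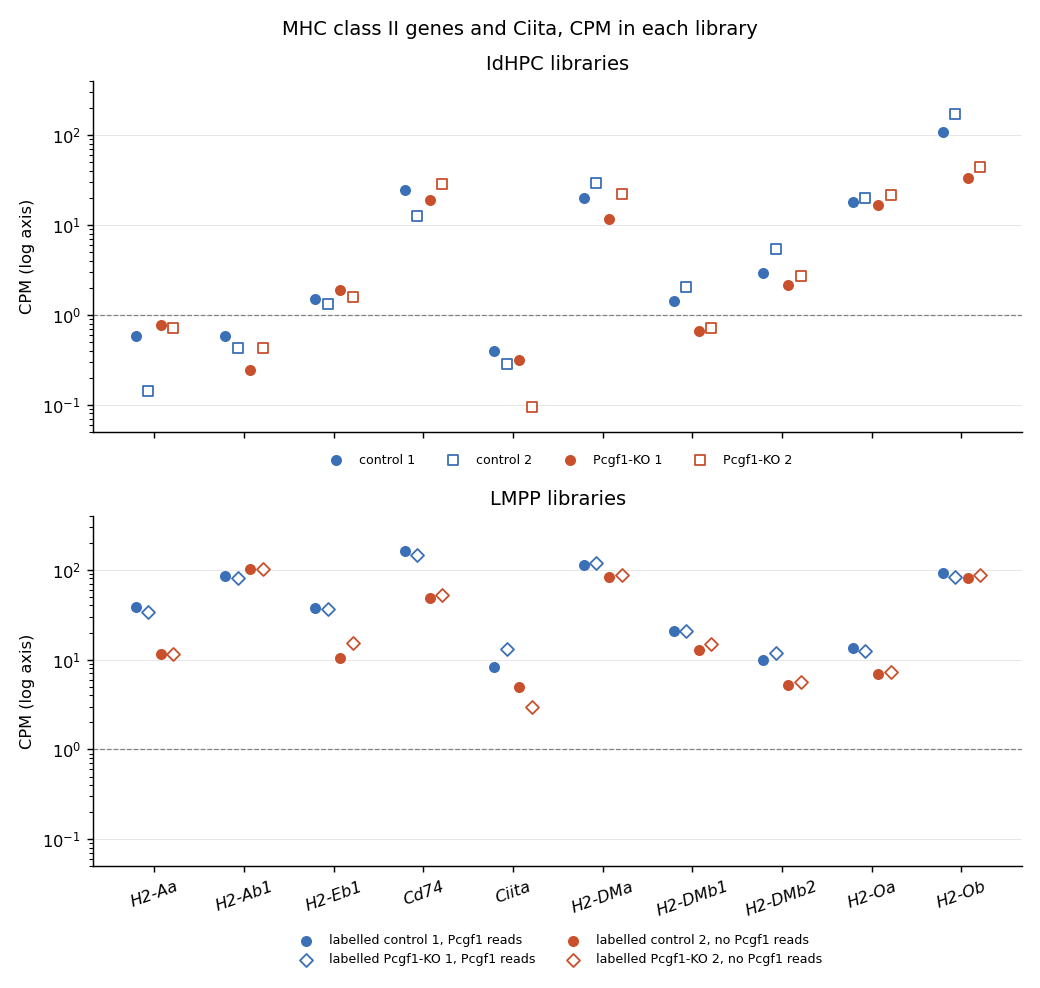
CPM of the 10 members (log axis) in each IdHPC library (top) and each LMPP library (bottom), 1 point per library, with the dashed line at the limit of 1 CPM used for testing. In the LMPPs, the orange points (no reads on *Pcgf1* exons 2 to 7) lie below the blue ones for 8 members, above them for *H2-Ab1* and among them for *H2-Ob*, while in the IdHPCs the orange points of *H2-Ob* lie at 33.2 and 44.1 CPM and the blue ones at 108 and 173.

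The comparison of LMPPs by label asks whether class II genes changed in the cells labelled Pcgf1-KO. None of the 10 members passed the test (limma on log2(CPM + 1), two-sided, Benjamini-Hochberg adjustment over 12153 genes, threshold 0.05), and 0% of all genes did. At an unadjusted p below 0.05 there were 0 members and 2 genes in all (0.0165%), and edgeR and DESeq2 on the recovered reads also called 0 genes. Values of the groups overlapped for all 10 members, while over all genes 5.92% did not overlap with higher and 6.3% with lower values. Differences on the log2(CPM + 1) scale ran from -0.10 (*H2-Aa*) to 0.23 (*H2-Eb1*), with a median of 0.00084 against -0.00075 over all genes. The interval for *H2-Aa* was wide (95% confidence interval -1.71 to 1.52), since each label holds 1 library with and 1 without *Pcgf1* reads, and that for *H2-Ob* was narrow (-0.31 to 0.30).

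Split by *Pcgf1* reads, the same LMPP libraries differed in 9 of 10 members: 8 were lower and 1 was higher in the libraries without *Pcgf1* reads. Of all 12153 genes tested, 7.08% were called lower and 10.1% higher in this comparison, 17.2% in all. The median difference was -0.83 over the members and -0.016 over all genes, on the log2(CPM + 1) scale, which understates changes of low genes. The groups did not overlap for the same 9 members, and over all genes 29.9% did not overlap with lower and 26.7% with higher values. In bulk libraries, fewer cells that make a transcript and less transcript per cell cannot be told apart.

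The invariant chain *Cd74* had 164 CPM in the library labelled control 1 and 147 CPM in Pcgf1-KO 1, against 48.7 CPM in control 2 and 52.3 CPM in Pcgf1-KO 2. Both libraries without *Pcgf1* reads were low whatever their label, and *Cd74* fell by 1.60 on the log2 scale (SE 0.088, limma adjusted p = 1.05e-05), 3.08 times in mean CPM. *H2-Aa* had 38.8 and 33.8 CPM with *Pcgf1* reads and 11.5 CPM in each library without them. It fell by 1.57 (SE 0.12, limma adjusted p = 3.59e-05), 3.16 times in mean CPM. *H2-Eb1* went from 37.7 and 36.3 CPM to 10.4 and 15.4 CPM, a fall by 1.48 (SE 0.16, limma adjusted p = 0.000242). The first 2 of these genes kept nearly the same proportion. The ratio of *Cd74* to *H2-Aa* within a library, which no scaling between libraries touches, was 4.22 and 4.35 with *Pcgf1* reads and 4.23 and 4.55 without.

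*H2-Ab1*, which encodes the partner chain of *H2-Aa*, took the other direction. It had 85.3 CPM in control 1 and 81.6 CPM in Pcgf1-KO 1, against 102 CPM in both control 2 and Pcgf1-KO 2. The groups did not overlap and the difference was small, 0.29 (SE 0.079, limma adjusted p = 0.0346), or 1.22 times in mean CPM. Per kb of exon, the ratio of *H2-Ab1* to *H2-Aa* was 2.66 and 2.91 in the libraries with *Pcgf1* reads and 10.7 in both libraries without. The fall of *H2-Aa* passed in all 13 alternatives, with differences between -1.67 and -1.48, while the rise of *H2-Ab1* passed in 7 of 13 (adjusted p between 0.0113 and 0.203, differences between 0.25 and 0.32). It did not pass when any 1 of the 4 libraries was left out (adjusted p between 0.105 and 0.203).

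The rows of the table, which are exons, show the same along each gene. *H2-Aa* was lower without *Pcgf1* reads on 5 of 5 distinct rows, with no overlap and at 0.29 to 0.40 of the mean with reads. *H2-Ab1* was higher on 5 of 6 rows and lower on 1, at 0.83 to 1.35 of the mean. *H2-Eb1* was lower on 6 of 6 rows and *Cd74* on 9 of 9.

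**Figure D2:**
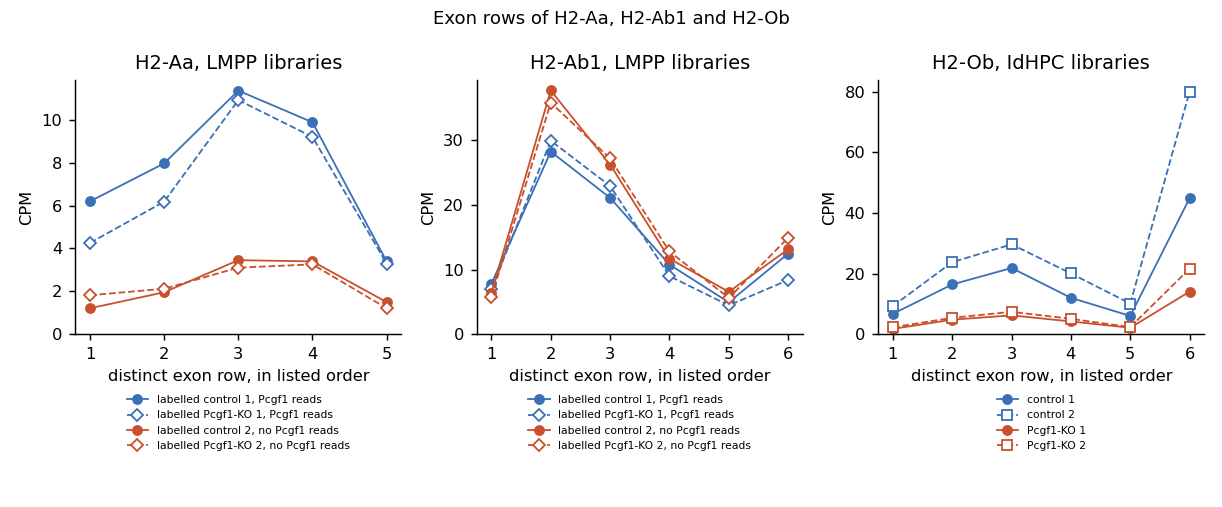
CPM on each distinct exon row, in the order listed in the table, of *H2-Aa* and *H2-Ab1* in the 4 LMPP libraries and of *H2-Ob* in the 4 IdHPC libraries, 1 line per library. For *H2-Aa* both lines without *Pcgf1* reads (orange) run below both lines with reads (blue) on 5 of 5 rows, for *H2-Ab1* they run above them on 5 of 6 rows, and for *H2-Ob* both Pcgf1-KO lines run below both control lines on 6 of 6 rows.

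*Ciita* was the least abundant member in LMPPs by mean CPM and per kb of exon. It had 8.26 CPM (112 reads) in control 1 and 12.97 CPM (189 reads) in Pcgf1-KO 1, against 4.95 CPM (86 reads) in control 2 and 2.95 CPM (39 reads) in Pcgf1-KO 2. The 2 libraries without *Pcgf1* reads were the lowest 2, and the libraries within a group also differed. *Ciita* fell by 1.23 (SE 0.24, limma adjusted p = 0.00617), and 10 of its 21 distinct rows were lower with no overlap. Of the peptide editors, *H2-DMa*, the alpha chain of H2-DM, went from 114 and 118 CPM to 82.2 and 87.4 CPM, a fall by 0.44 (SE 0.080, limma adjusted p = 0.00427). The beta chain genes *H2-DMb1* (20.8 and 20.9 CPM against 12.7 and 14.99 CPM) and *H2-DMb2* (9.95 and 11.7 CPM against 5.24 and 5.602 CPM) fell by 0.56 and 0.88. For *H2-DMb1* the call was lost without the library labelled control 2 (difference -0.45, limma adjusted p = 0.0778). Summed over both paralogs, the beta chain had 30.7 and 32.7 CPM with *Pcgf1* reads and 17.9 and 20.6 CPM without.

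The H2-O genes differed from each other. *H2-Oa*, the alpha chain, had 13.4 and 12.5 CPM with *Pcgf1* reads and 6.96 and 7.27 CPM without, and fell by 0.78 (SE 0.13, limma adjusted p = 0.00301). *H2-Ob*, the beta chain, had 91.1 CPM in control 1, 83.2 CPM in Pcgf1-KO 1, 80.7 CPM in control 2 and 88.3 CPM in Pcgf1-KO 2. Its groups overlapped, and its difference of -0.04 (95% confidence interval -0.24 to 0.15, limma adjusted p = 0.793) leaves room for changes within that interval. The ratio of *H2-Ob* to *H2-Oa* was 6.79 and 6.66 with *Pcgf1* reads and 11.6 and 12.1 without.

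**Figure D3:**
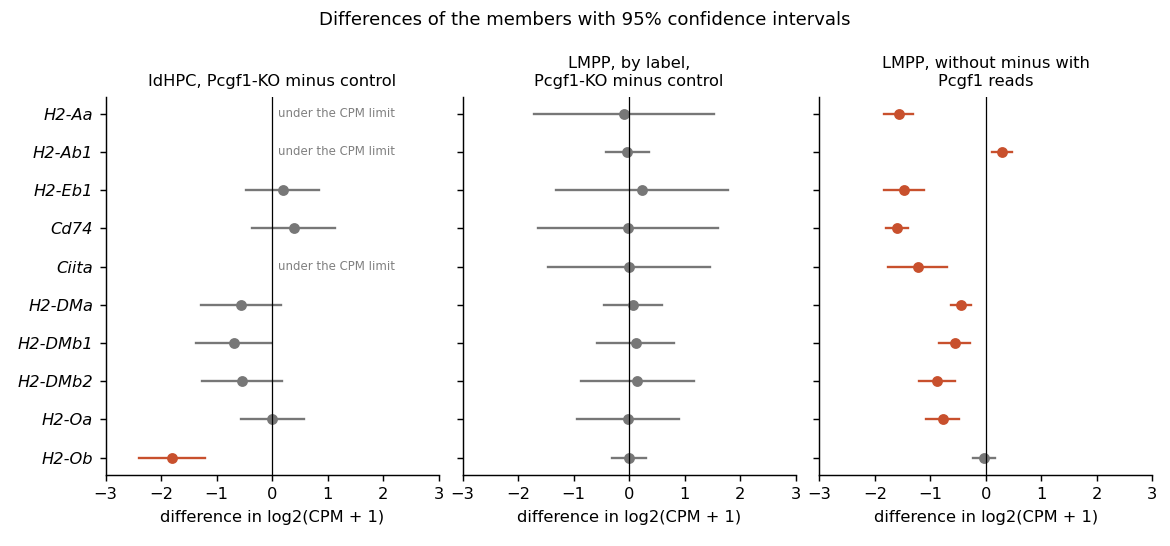
Difference in log2(CPM + 1) of each member (points) with its 95% confidence interval (lines) from limma, for IdHPCs by label, LMPPs by label and LMPPs by *Pcgf1* reads, in orange where the adjusted p is below 0.05. Orange points are *H2-Ob* at -1.81 in IdHPCs, none in LMPPs by label, and 9 of 10 members by *Pcgf1* reads, of which *H2-Ab1* at 0.29 is the only one above 0.

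In IdHPCs the I-A chains and *Ciita* were close to the limit of detection. *H2-Aa* had 0.582 and 0.143 CPM in control IdHPCs against 0.772 and 0.706 CPM in Pcgf1-KO IdHPCs (5 to 22 reads). *H2-Ab1* had 0.582 and 0.430 CPM in control IdHPCs against 0.246 and 0.423 CPM in Pcgf1-KO IdHPCs (7 to 19 reads). *Ciita* had 0.398 and 0.287 CPM in control IdHPCs against 0.316 and 0.0941 CPM in Pcgf1-KO IdHPCs (2 to 13 reads). These 3 members stayed under 1 CPM in every IdHPC library and were not tested, and differences were not resolvable at this depth. The other 7 were tested, *H2-DMb1* only because its controls exceeded the limit, and 1 of 7 was called, lower in Pcgf1-KO. Of all 12273 genes tested in IdHPCs, 0.261% were called lower and 0.269% higher, 0.53% in all (65 genes). That count depends on the test, with 610 genes called by edgeR's exactTest, 497 by DESeq2 and 14 to 825 by limma with 1 library left out. Of the 7, 3 were lower and 1 higher with no overlap, against 21.3% and 25.6% of all genes, and the median difference was -0.55 against 0.0056 over all genes. Without Pcgf1-KO 1 the median of the members was -0.13.

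The gene called was *H2-Ob*, with 108 CPM (3523 reads) in control 1 and 173 CPM (6031 reads) in control 2 against 33.2 CPM (945 reads) in Pcgf1-KO 1 and 44.1 CPM (938 reads) in Pcgf1-KO 2. Both Pcgf1-KO libraries were below both controls, also on 6 of 6 exon rows, at 0.25 to 0.29 of the control mean. *H2-Ob* fell by 1.81 (SE 0.27, limma adjusted p = 0.0238), 3.63 times in mean CPM. Its partner *H2-Oa* had 18.1 and 20.1 CPM in control IdHPCs against 16.8 and 21.7 CPM in Pcgf1-KO IdHPCs, which overlapped (difference 0.0016, 95% confidence interval -0.56 to 0.57), and the sign of that difference turned under median-ratio scaling, DESeq2 and without the row at the 3′ end. The ratio of *H2-Ob* to *H2-Oa* was 5.96 and 8.60 in the controls and 1.98 and 2.03 in the Pcgf1-KO libraries. The call of *H2-Ob* held in 11 of 14 alternatives. It was lost without control 2 (difference -1.47, adjusted p = 0.200), without a filter on low genes (difference -1.81, adjusted p = 0.188) and without the exon row at the 3′ end (difference -1.83, adjusted p = 0.272). Reads on that row made 28.0% of the total in Pcgf1-KO 2 and 22.8% to 24.5% in the other 3 IdHPC libraries, over 7707 well covered genes, and the part of this in the differences was not tested.

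The other members tested in IdHPCs did not pass. *H2-DMb1* had 1.44 and 2.06 CPM in control IdHPCs against 0.667 and 0.706 CPM in Pcgf1-KO IdHPCs (difference -0.70, SE 0.30, limma adjusted p = 0.329). *H2-DMb2* had 2.94 and 5.42 CPM against 2.18 and 2.73 CPM, and *H2-DMa* had 19.99 and 29.03 CPM against 11.6 and 22.0 CPM. *H2-Eb1* had 1.5002 and 1.32 CPM in control IdHPCs against 1.90 and 1.60 CPM in Pcgf1-KO IdHPCs. *Cd74* had 24.8 and 12.5 CPM in control IdHPCs against 19.2 and 28.6 CPM in Pcgf1-KO IdHPCs, and its difference of 0.39 (SE 0.34, limma adjusted p = 0.621) turned to -0.076 without control 2.

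The 8 members on chromosome 17 share their region with 5 other genes of the tables, of 18 genes annotated between *H2-Oa* and *H2-Eb1*. These are *Brd2*, a reader of acetylated histones, and *Psmb9*, *Tap1*, *Psmb8* and *Tap2*, which make and carry peptides for MHC class I. The region was looked at after the values were known. None of the 5 was called in any comparison. In LMPPs by *Pcgf1* reads their differences lay between -0.020 and 0.21, with members that were called lower on both sides of them. *H2-Ob*, the member without a call, is the neighbour of *Tap2*, and *H2-Ab1*, the member that was higher, follows it. In IdHPCs the 5 genes had differences between -0.74 (*Tap1*) and -0.10 (*Brd2*), against -1.81 for *H2-Ob*.

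**Figure D4:**
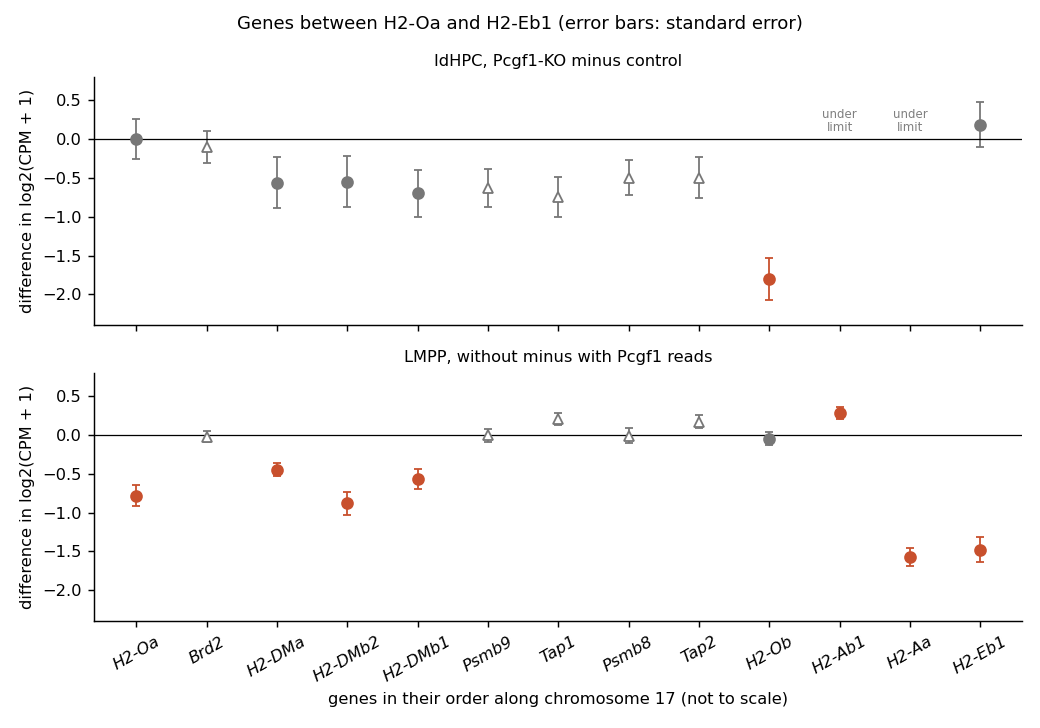
Difference in log2(CPM + 1) with its standard error for the 13 genes of the class II region in their order along chromosome 17 (not to scale), in IdHPCs by label (top) and LMPPs by *Pcgf1* reads (bottom), with members as filled circles, other genes as open triangles and calls in orange. In the lower panel the 5 triangles lie between -0.020 and 0.21 with called members to both sides, and in the upper panel *H2-Ob* at -1.81 is the only orange point.

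Of the other class II loci, *H2-Ea-ps*, a pseudogene by its symbol, had 0 reads in all 8 libraries. This allows up to 0.0860 to 0.227 CPM (3 reads, counting error only). Whether it is a pseudogene in both parent strains is not given in the sources used here. *H2-Eb2*, another beta chain gene, had 4.26 and 10.3 CPM in control IdHPCs and 2.63 and 3.29 CPM in Pcgf1-KO IdHPCs (difference -0.97, limma adjusted p = 0.266), and at most 0.147 CPM in LMPPs. Of the 7 factors that bind class II promoters, all tested, 0 were called in IdHPCs. By *Pcgf1* reads in LMPPs, *Rfxap* was higher (0.48) and *Rfxank* lower (-0.50), both subunits of RFX, and the other 5 were not called.

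Of 12 regulators of *Ciita*, 11 were tested. By *Pcgf1* reads in LMPPs 7 were lower, 1 was higher and the median difference was -0.29. *Irf8* and *Irf4*, factors of dendritic and B cells, had differences of -0.67 and -1.34, and *Irf8* went from 545 and 557 CPM to 355 and 338 CPM. *Ifngr2*, *Socs1*, *Sfpi1* and *Irf1* were among the others that were lower, and the kinase *Jak1* was higher (0.34). In IdHPCs 1 of 11 was called, *Irf4*, with 13.8 and 12.3 CPM in control IdHPCs against 3.65 and 3.39 CPM in Pcgf1-KO IdHPCs (difference -1.64, SE 0.27, limma adjusted p = 0.0356).

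Genes of antigen processing and class II turnover moved in both directions by *Pcgf1* reads in LMPPs: 3 of 9 tested were lower and 2 higher. *Ctss*, the protease that trims the invariant chain, went from 55.8 and 50.9 CPM to 10.6 and 15.0 CPM (difference -1.996, SE 0.15). *Lgmn*, an endosomal protease, and *March1*, a ubiquitin ligase that removes class II from the surface, had differences of -1.74 and -1.45. The tetraspanin *Cd63* (0.75) and the reductase *Ifi30* (0.66) were higher. In IdHPCs *Cd63* was the 1 of 8 called, with 102 and 80.5 CPM in control IdHPCs against 270 and 258 CPM in Pcgf1-KO IdHPCs (difference 1.53, limma adjusted p = 0.02002). Of the costimulatory genes, *Cd80* and *Icosl* were lower by *Pcgf1* reads in LMPPs (2 of 3 tested, *Cd80* reaching 1 CPM only in libraries with *Pcgf1* reads), and 0 of 2 were called in IdHPCs. Of the 10 genes of the MHC class I pathway, all tested, *Nlrc5*, the class I transactivator, and *Tapbp* were lower by *Pcgf1* reads (-0.94 and -0.26), and the median was -0.0051. In IdHPCs 0 of these 10 were called and the median was -0.48.

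Markers of cells that can make class II differed in part by the same split. Of 10 monocyte and macrophage markers, 6 were tested in LMPPs and 6 were lower without *Pcgf1* reads, among them *Csf1r*, *Cd68* and *Lyz2*. Their summed level was 538 and 527 CPM with *Pcgf1* reads and 345 and 335 CPM without, while the macrophage genes *C1qa*, *C1qb* and *C1qc* had at most 0.206 CPM in any library. Of 6 plasmacytoid dendritic cell markers 5 were tested and 3 were lower (*Siglech*, *Bst2* and *Tcf4*), with sums of 382 and 355 CPM against 235 and 238 CPM. Of 8 conventional dendritic cell markers 5 were tested and 2 were lower (*Clec10a* and *Ccr7*), but the sums were 92.8 and 94.8 CPM against 99.3 and 97.1 CPM, most of it *Itgax*. Of 8 B cell markers 3 were tested and 2 were lower (*Cd22* and *Blk*, both of which reached 1 CPM only in libraries with *Pcgf1* reads), with sums of 20.1 and 16.5 CPM against 13.2 and 14.01 CPM, and *Ms4a1* had at most 0.0686 CPM. The part of these cells in the class II differences was not tested. Of 12 stromal markers 4 were tested in LMPPs, and *Pdgfrb* was higher and *Thy1* lower. The sums were 39.6 and 41.2 CPM against 61.1 and 51.8 CPM, most of it *Pdgfrb* (35.1 and 35.8 CPM against 56.8 and 48.8 CPM). *Col1a1*, *Col1a2* and *Sparc* had at most 0.230, 0.412 and 0.480 CPM in any LMPP library. Of 6 progenitor markers *Kit* was higher and *Il7r* and *Ly6a* were lower.

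In IdHPCs 1 of 5 tested B cell markers was called, *Blk*, with 29.3 and 87.0 CPM in control IdHPCs against 0.702 and 4.09 CPM in Pcgf1-KO IdHPCs. The summed level of the 8 B cell markers was 60.1 and 141 CPM in the controls against 24.1 and 48.98 CPM, with control 2 highest for the sum as for *H2-Ob*. *Blk* alone made 29.3 and 87.0 CPM of the control sums. Of the other tested markers, *Cd79a*, *Cd79b* and *Cd22* overlapped between the groups, and *Pax5* was lower with no overlap but not called. *Ms4a1* had 0 reads in all 4 libraries. Stromal markers, as the TSt-4 feeder cells would give, summed to 3404 and 3015 CPM in control IdHPCs against 7071 and 5791 CPM in Pcgf1-KO IdHPCs, and 2 of 11 tested were called higher (*Col1a2* and *Sparc*). The monocyte and macrophage sum was 10.2 and 9.26 CPM for controls against 12.3 and 11.9 CPM, with 0 of 5 called. Conventional dendritic cell markers (0 of 1 tested called) summed to 18.3 and 10.1 CPM for controls against 7.37 and 7.01 CPM. Most of it was *Ccr7* (17.3 and 9.17 CPM against 5.69 and 5.46 CPM). With no overlap, *Zbtb46*, *Xcr1* and *Batf3* were higher and *Itgax* was lower, all under 1 CPM and not tested. Plasmacytoid dendritic cell markers (0 of 5 called) summed to 204 and 202 CPM for controls against 227 and 293 CPM, most of it *Bst2* and *Tcf4*. With no overlap, 3 of them were higher (*Bst2*, *Tcf4* and *Ccr9*) and 2 were lower. The lower ones were *Siglech* (3.86 and 2.61 CPM against 0.386 and 0.706 CPM) and *Cox6a2* (23.7 and 12.1 CPM against 6.04 and 2.87 CPM). Progenitor markers gave 0 calls of 6. The part of these cells in the differences of *H2-Ob*, *Irf4* and *Cd63* was not tested.

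**Figure D5:**
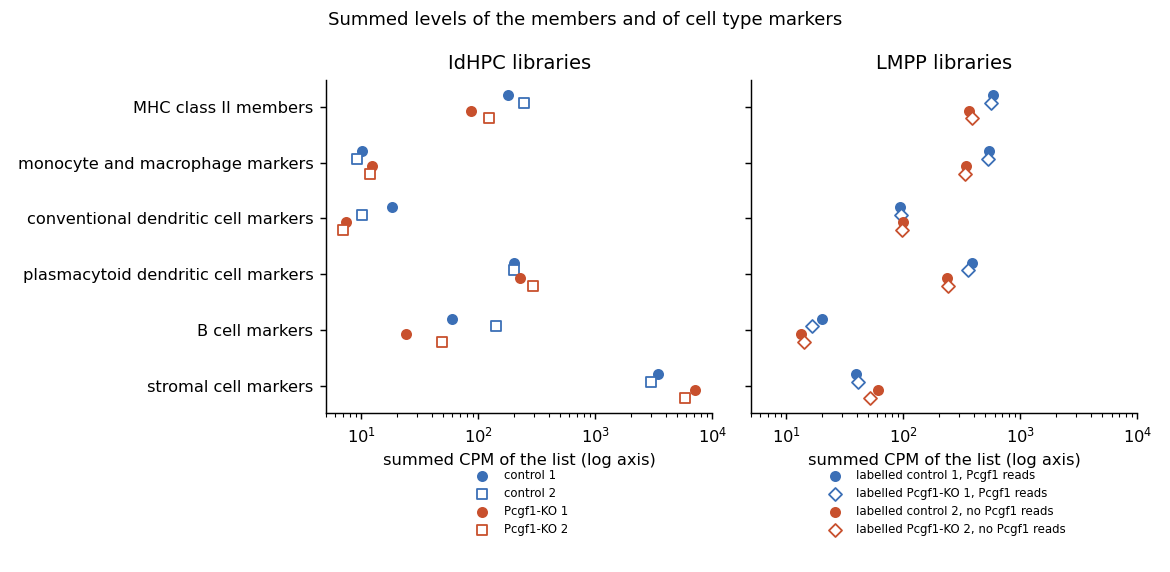
Summed CPM (log axis) of the 10 members and of 5 lists of cell type markers in each IdHPC library (left) and LMPP library (right), 1 point per library. In the LMPPs the members and the monocyte and macrophage markers are both lower in the libraries without *Pcgf1* reads (365 and 388 CPM, and 345 and 335 CPM), and in the IdHPCs the stromal sums of 7071 and 5791 CPM in Pcgf1-KO lie above those of the controls.

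The 5 genes whose pattern over the 8 libraries was most like the mean of *H2-Aa*, *H2-Ab1*, *H2-Eb1* and *Cd74* were *Cd48*, *Eed*, *Plb1*, *Nkg7* and *Socs1*, of 11241 other genes tested in both tables. Pearson's r lay between 0.973 and 0.986 on log2(CPM + 1) after the mean of each table was removed. It is a description over 8 libraries that share tables, scaling and the split by *Pcgf1* reads. Within that mean, *H2-Ab1* went against the other genes in LMPPs by *Pcgf1* reads, and *H2-Aa* and *H2-Ab1* were under 1 CPM in every IdHPC library. *Cd48*, for example, had 42.2 and 37.7 CPM in LMPPs with *Pcgf1* reads, 24.1 and 25.2 CPM in those without, and between 15.8 and 18.8 CPM in IdHPCs.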

How the data were processed

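RNA-seq of 4 IdHPC and 4 LMPP libraries was analysed, 2 per label and cell type. The authors isolated poly(A) RNA, made libraries with a kit that does not mark strand, aligned reads to mm9, counted them with Rsubread and deposited CPM from edgeR in 2 tables of 284716 exon rows. The methods name HISAT2 as aligner, while the submitters' processing notes list TopHat2 (version 2.0.13). The design had assumed rows per gene. Rows of a symbol equal in all 8 libraries to the row before (26.6% of rows with reads) were counted once and rows were summed per symbol. All values (100%, within 1e-06) were whole multiples of 1 read, so reads could be recovered. A read that spans exons may stand on several rows, and counts then overstate precision. Floors cover counting error only.

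The tables were fitted separately with limma (version 3.58.1, R 4.3.3) on log2(CPM + 1), with the variance prior following mean expression, over genes reaching 1 CPM in any library. Benjamini-Hochberg adjusted p below 0.05 was called. On simulated counts in which 200 genes had a log2 fold change of 2, 200 were recovered in each comparison, with 4 to 9 false calls. The simulated dispersion was 0.02 and the changed genes were well covered. By label in LMPPs the SE of *Cd74* was 0.66, and recovery at such a spread was not tested, so these counts do not give the power of the comparisons. Alternatives were a pseudocount of 0.1, no filter, CPM of 1 in 2 libraries, median-ratio scaling, the replicate number as a block, each library left out, DESeq2 (version 1.42.0) and both exactTest and the quasi-likelihood test of edgeR (version 4.0.16) on recovered reads, all listed rows, sums without the 3′ row, and CPM per kb of exon for the order of levels. The named genes were all 10 members, the called members of the lists (otherwise those with the largest difference) and the 5 genes most alike. The members, the split and the lists were chosen with earlier results of these data known. Annotation came from GENCODE (NCBIM37), and *Sfpi1* and *Emr1* are the older symbols of *Spi1* and *Adgre1*. Some genes of the lists are counted in them but are not reported here by name.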

Additional observations from a re-analysis of the deposited data

Results flagged for a closer look

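A group of 3 genes had every Pcgf1-KO IdHPC library on 1 side of the controls and both LMPP libraries without *Pcgf1* reads on the other side of those with reads. On the log2(CPM + 1) scale, *H2-Aa* differed by 0.37 in IdHPCs and by -1.57 in LMPPs, *H2-Eb1* by 0.19 and -1.48, and *H2-Ab1* by -0.18 and 0.29. The difference between the cell types was not tested, since the tables were normalized separately. The same opposite pattern was found in 11.3% of the 12533 genes with reads in all 8 libraries, against 3 of the 10 members. Among the 11248 genes tested in both tables it was found in 11.4%, against 1 of 7 members. In IdHPCs *H2-Aa* and *H2-Ab1* were under the CPM limit and were not tested, they rest on 5 to 22 and 7 to 19 reads, and *H2-Ab1* separates by 0.430 against 0.423 CPM.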

How the results depend on the processing

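Limits: with 2 libraries a side, leaving 1 out assumes that the lone library varies like the others. By *Pcgf1* reads, *Cd74*, *H2-Aa*, *H2-Eb1*, *Ciita*, *H2-DMa*, *H2-DMb2* and *H2-Oa* kept their call in 13 of 13 alternatives, *H2-DMb1* in 12 (not without the library labelled control 2) and *H2-Ab1* in 7. No replicate block could be fitted there, since the split is the replicate number.

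The count of all genes called in IdHPCs was 65. It was 0 with no filter, 104 with median-ratio scaling, 669 with the replicate block, 124 with edgeR's quasi-likelihood test, 610 with exactTest, 497 with DESeq2, 3 without the 3′ row, and 14 to 825 with 1 library left out. No source ties samples of the same number together, although in LMPPs the number is also the split by *Pcgf1* reads (correlation of replicate differences 0.147 in IdHPCs and 0.705 in LMPPs, 2 pairs each), and the block changed no call of a member. In LMPPs by label, 3 genes were called with the replicate block. By *Pcgf1* reads the count of 2089 became 1162 without the 3′ row and 1291 to 1947 with 1 library left out. The members called in IdHPCs were 0 with no filter and without the 3′ row, and 0 to 1 with 1 library left out. The cause was not tested.

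Differences that changed sign had no call. In IdHPCs *H2-Oa* became -0.017 with median-ratio scaling, -0.0067 with DESeq2, -0.032 without the 3′ row and -0.17 to 0.18 with 1 library left out, and *Cd74* ran from -0.076 to 0.86. In LMPPs by label, *Ciita* became -0.040 with a pseudocount of 0.1 and -0.071 with all listed rows. *H2-Ob* became 0.0034 with median-ratio scaling, 0.0035 with both edgeR tests, 0.0025 with DESeq2 and 0.0072 without the 3′ row. With 1 library left out, the ranges by label were -0.93 to 0.74 for *H2-Aa*, -0.19 to 0.13 for *H2-Ab1*, -0.65 to 1.11 for *H2-Eb1*, -0.89 to 0.84 for *Cd74*, -0.91 to 0.91 for *Ciita*, -0.16 to 0.30 for *H2-DMa*, -0.22 to 0.46 for *H2-DMb1*, -0.32 to 0.62 for *H2-DMb2*, -0.45 to 0.41 for *H2-Oa* and -0.087 to 0.086 for *H2-Ob*. By *Pcgf1* reads *H2-Ob* ran from -0.11 to 0.021.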
